A study of Mus musculus with 8 samples.

Results

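Cyr61 and 9 further genes known as transcriptional targets of Yap1 and TAZ were followed in haematopoietic stem cells of 4 genotypes. The 10 genes were taken as a fixed list of symbols, which are Cyr61, Ctgf, Ankrd1, Amotl1, Amotl2, Ajuba, Axl, Crim1, Nuak2 and Ptpn14, and all 10 were found among the 33641 gene symbols measured. The stem cells came from bone marrow of C57BL/6 mice carrying Mx1-Cre, a recombinase that interferon switches on. Per the labels, Cre was induced with polyI:C, a double-stranded RNA mimic, in 6 injections of 10 mg/kg spaced by a day of rest, and the marrow was taken 1 week after them. The groups were Scribble null (Scribble-/-), Yap1 Taz null (Taz-/-;Yap1-/-), triple null (Scribble-/-;Taz-/-;Yap1-/-) and wild type, with 2 libraries each. Mx1-Cre acts in all interferon-responsive cells, so deletion was not restricted to stem cells, and the wild-type mice carried Cre and were induced as well. The labels do not state whether the 2 libraries of a genotype are separate animals, so the p-values speak for the spread of these libraries alone, and that spread may be technical.

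Yap1 and TAZ are co-activators that carry no DNA-binding domain of their own and reach their target genes mainly through the TEAD transcription factors. The Hippo kinases of the Mst and Lats families phosphorylate them and hold them in the cytoplasm, and the polarity protein Scribble is a scaffold that can bring these kinases and TAZ together. Cyr61 and Ctgf are the targets most often used as a readout of the pathway in adherent cells. Several of the other targets, among them the angiomotin-like proteins, Ajuba and Ptpn14, act back on Yap1 or on its kinases.

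The promoters of the targets are shown first, because binding through TEAD is what marks these genes as a group. RefSeq promoter sequences of build GRCm38.p6, reaching from 250 bases before to 50 bases after the annotated start, matched 8 of the 10 genes, all except Ctgf and Nuak2. The TEAD motif GGAATG was searched on both strands (CATTCC on the strand shown), and since no promoter of the 8 held another motif searched, no overlap arose. It was present in 7 of these 8 promoters, and in 14.663% of 32851 mouse promoters of the same length. Amotl1 had no match in this window. Its 250 bases before the start, at chr9:14615001-14615250, lie inside the gene as located below (14541966 to 14645056, minus strand). The window of Amotl2 printed below also lies inside its gene as located (102716672 to 102733418, plus strand). So does that of Ankrd1, chr19:36119845-36120094, by a few bases (gene 36111961 to 36120099, minus strand). The outer ends of these genes as located were therefore not searched. The AP-1 motif TGANTCA and the SRF CArG box were in none of the 8, against 7.808% and 1.629% of all promoters. Below are the 250 bases before the start for Cyr61, the target that changed, and for Amotl2 and Ptpn14, 2 targets that feed back on Yap1. Capitals mark the TEAD motif, which begins 103 bases before the start in Cyr61, 65 in Amotl2 and 146 in Ptpn14.
Cyr61, chr3:145649986-145650235, minus strand: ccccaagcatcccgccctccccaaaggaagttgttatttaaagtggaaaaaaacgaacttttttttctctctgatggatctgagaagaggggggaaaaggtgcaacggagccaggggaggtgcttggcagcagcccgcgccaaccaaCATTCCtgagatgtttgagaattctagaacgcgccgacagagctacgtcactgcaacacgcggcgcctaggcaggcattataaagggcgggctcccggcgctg
Amotl2, chr9:102717554-102717803, plus strand: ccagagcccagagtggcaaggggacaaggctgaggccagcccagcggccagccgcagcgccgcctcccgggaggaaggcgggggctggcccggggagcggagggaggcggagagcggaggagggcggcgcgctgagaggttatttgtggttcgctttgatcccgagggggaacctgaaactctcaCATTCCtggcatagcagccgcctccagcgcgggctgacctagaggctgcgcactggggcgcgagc
Ptpn14, chr1:189728018-189728267, plus strand: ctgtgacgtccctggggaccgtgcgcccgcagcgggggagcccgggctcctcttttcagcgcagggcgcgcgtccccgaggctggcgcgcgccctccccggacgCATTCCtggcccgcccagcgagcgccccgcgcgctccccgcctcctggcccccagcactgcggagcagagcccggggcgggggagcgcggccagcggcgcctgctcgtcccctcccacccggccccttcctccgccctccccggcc

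**Figure D1:**
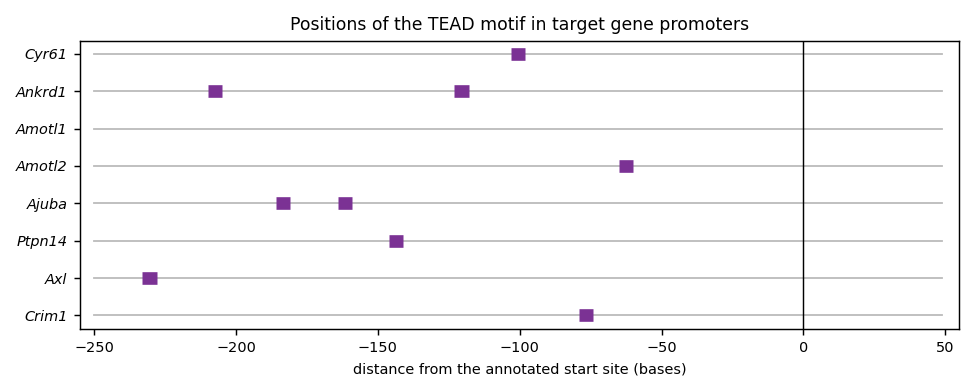
Positions of the TEAD motif (purple boxes) in the promoters of 8 target genes, from 250 bases before to 50 bases after the annotated start (vertical line, distance in bases on the horizontal axis). All matches lie before the start, and Ankrd1 and Ajuba hold 2 each while Amotl1 holds none.

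Levels are given in TPM, transcript abundance corrected for length and scaled to the same total in each library. TPM keeps no sequencing depth, so the precision of low values is unknown. Between 14024 and 14970 symbols reached 1 TPM in a library. The 14 stem cell markers summed to between 2428 and 3034 TPM per library. Against wild type limma called none in Scribble null, Yap1 Taz null or triple null (1.3%, 0.99% and 0.579% of all genes). In that order 8, 6 and 8 lay above without overlap (33.2%, 32% and 30.9% of all genes). Below lay 2, 3 and 1 (15.7%, 14.5% and 14.2%). Ly6a was 359 and 417 TPM in wild type and 148 to 255 TPM in the null libraries. Procr was called higher in triple null than in Yap1 Taz null (limma, adjusted p = 0.0459, where 0.181% of genes were called). The 18 lineage markers summed to between 147 and 451 TPM, most of it from Prtn3, a granule protease of immature myeloid cells, at 118 to 425 TPM, and 6 of the 18 were under 1 TPM in every library. The libraries labelled Yap1 Taz null stood apart in Y-linked genes: Eif2s3y was at 4.16 and 4.63 TPM there and between 45.8 and 64.1 TPM in the other 6. The labels give no sex, and sex cannot be told apart from genotype in any comparison that uses those libraries.

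The targeted genes were compared with the labels. Scrib was 6.25 and 7.63 TPM in Scribble null, 7.98 and 7.32 TPM in Yap1 Taz null, 14.5 and 7.54 TPM in triple null and 8.19 and 9.29 TPM in wild type. Yap1 was 5.83 and 2.45 TPM in Scribble null, 2.13 and 6.63 TPM in Yap1 Taz null, 2.25 and 2.37 TPM in triple null and 2.00 and 2.15 TPM in wild type. Wwtr1, the gene of TAZ, was 5.32 and 3.91 TPM in Scribble null, 1.09 and 1.15 TPM in Yap1 Taz null, 1.92 and 0.775 TPM in triple null and 0.730 and 1.19 TPM in wild type. Scrib lay below wild type in both Scribble null libraries, without a call (limma, adjusted p = 0.669), and also in both Yap1 Taz null libraries (limma, adjusted p = 0.843), whose label does not name its loss, and it overlapped wild type in triple null. Neither Yap1 nor Wwtr1 lay below wild type in both libraries of a genotype whose label names its loss. A level summed over a whole gene does not show the loss of single exons, so each direction below is between libraries as labelled.

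Cyr61, a secreted matricellular protein of the CCN family that binds integrins (mm10 chromosome 3, 145646976 to 145649981, minus strand), was the most abundant of the 10 genes on average and fell in the triple null. It stood at 24.96 and 21.2 TPM in Scribble null, 31.9 and 28.1 TPM in Yap1 Taz null, 9.85 and 6.50 TPM in triple null and 30.7 and 35.2 TPM in wild type. Both triple null libraries lay below all 6 others. Its means were 23.1 ± 2.62 TPM in Scribble null, 29.96 ± 2.68 TPM in Yap1 Taz null, 8.18 ± 2.38 TPM in triple null and 32.95 ± 3.17 TPM in wild type (SD, n = 2 each). From the highest mean down, the order was wild type, Yap1 Taz null, Scribble null and triple null. The first pair overlapped, and the other neighbours in that order were apart.

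Against wild type, Cyr61 in the triple null was at 24.8% of the level, a log2 difference of −1.91 with SE 0.24 (limma, adjusted p = 0.0143). It was the single target called among the 8 tested, in a comparison where 0.355% of 16064 genes were called lower and 0.579% in either direction. All differences are on the log2(TPM + 1) scale, adjustment is over all genes tested, and a gene is called at an adjusted p under 0.05. The call was lost without triple null 2 (−1.64, limma adjusted p = 0.111), without wild type 1 (−2.00, limma adjusted p = 0.115) and without wild type 2 (−1.81, limma adjusted p = 0.119), in fits that assume the lone library left to vary like the other groups.

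Against Yap1 Taz null, Cyr61 in the triple null was at 27.3% of the level, a difference of −1.78 with SE 0.24 (limma, adjusted p = 0.0459, where 0.112% of genes were called lower and 0.181% in either direction). It was again the single target called. With the replicate number as a block the limma adjusted p was 0.108, and leaving out any 1 of the 8 libraries ended the call, with limma adjusted p between 0.0787 and 0.318 and differences between −2.04 and −1.51. Against Scribble null, Cyr61 in the triple null was at 35.4%, a difference of −1.41 with SE 0.24 that did not pass (limma, adjusted p = 0.0926).

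Cyr61 did not pass the test in Scribble null or in Yap1 Taz null. In Scribble null it differed from wild type by −0.50 with SE 0.24 (limma, adjusted p = 0.323), although both Scribble null libraries lay below both wild-type ones. In Yap1 Taz null, the genotype that lacks the co-activators by label, the difference was −0.13 with a 95% interval of −0.68 to 0.42 (limma, adjusted p = 0.833), and the libraries overlapped. Had these 2 differences simply added up on the log2 scale, the triple null would have stood higher: its departure from additivity was −1.28 with SE 0.34, which did not pass (limma, adjusted p = 0.162). A second table deposited by the authors, in a unit its header does not name, gave Cyr61 values of 21.9 and 18.8 in Scribble null, 28.5 and 25.7 in Yap1 Taz null, 8.66 and 5.78 in triple null and 23.7 and 30.7 in wild type, with the triple null again below the other 6.

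**Figure D2:**
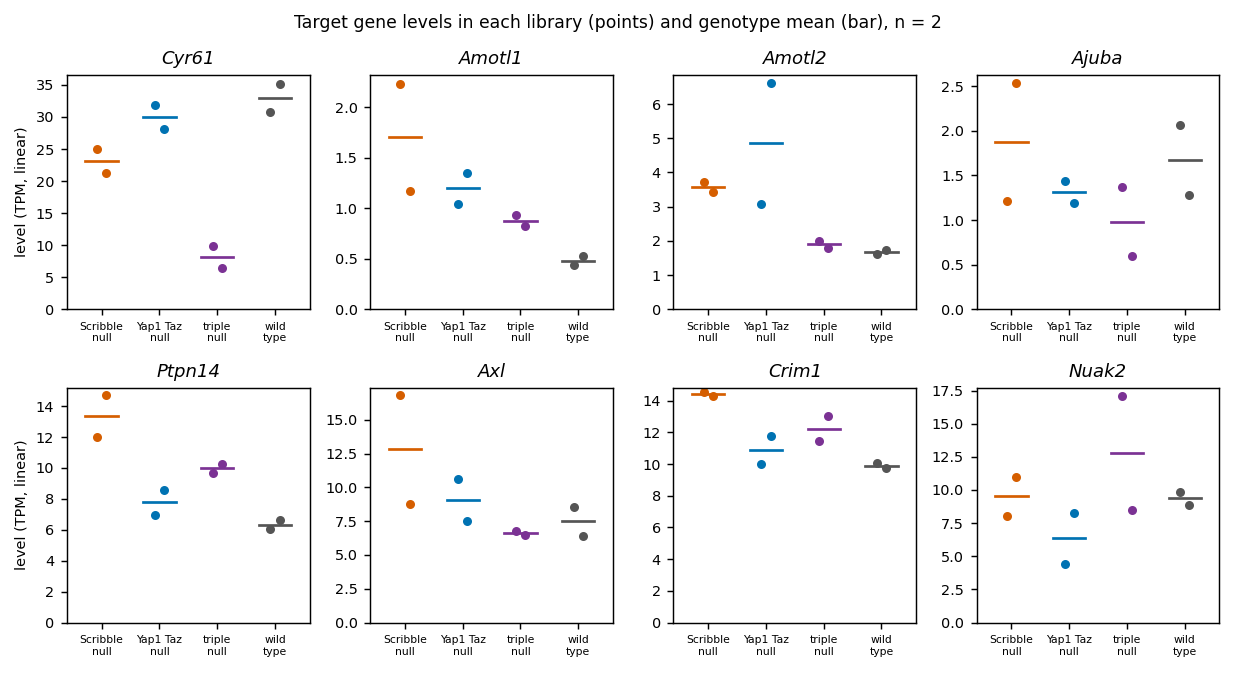
TPM of the 8 target genes that passed the filter on low values, on linear axes that start at 0 and differ between panels. Points are the 2 libraries of each genotype and bars their mean. Cyr61 in the triple null, at 9.85 and 6.50 TPM, lies below every other library.

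In bulk samples, fewer cells of a type and less RNA per cell cannot be told apart, so markers of other cell types are given beside the Cyr61 values. The 11 megakaryocyte markers measured summed to 548 and 563 TPM in Scribble null, 719 and 752 TPM in Yap1 Taz null, 563 and 621 TPM in triple null and 1278 and 1389 TPM in wild type. Much of that difference was Pf4, a platelet chemokine, which was called lower by limma in Scribble null, in Yap1 Taz null and in triple null (adjusted p = 0.000333, 0.00429 and 0.00224). In these comparisons 114, 83 and 57 of 16064 genes were called lower. Without Pf4, a choice made after its values were seen, the sums were 453 and 464 TPM in Scribble null, 497 and 541 TPM in Yap1 Taz null, 428 and 399 TPM in triple null and 462 and 431 TPM in wild type. Of the 10 megakaryocyte markers tested, 5 lay below wild type without overlap in triple null and none above (14.2% and 30.9% of all genes). In Scribble null, where Cyr61 was not called, 7 lay below and 2 above (15.7% and 33.2% of all genes). In Yap1 Taz null 2 lay below and 4 above (14.5% and 32% of all genes). The part of these markers in the Cyr61 difference was not tested.

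The 12 endothelial markers, of which Vwf is also a megakaryocyte marker, summed to 302 and 246 TPM in triple null and 212 and 239 TPM in wild type. Of the 8 tested, limma called none in that comparison (0.579% of all genes were), and 3 had an unadjusted p under 0.05 (10.9% of all genes had). Without overlap 3 lay above wild type, namely Cldn5, Emcn and Pecam1, and 1, Egfl7, lay below (30.9% and 14.2% of all genes). Cldn5 reached 1 TPM only in null libraries, so it passed the filter on low values through the groups where it is high. Egfl7, the most abundant of the 12, was 80.3 and 75.3 TPM in triple null and 85.8 and 93.55 TPM in wild type. Tek, which overlapped wild type, was 66.0 and 26.85 TPM in triple null and 13.6 and 27.4 TPM in wild type. Cldn5, a tight junction protein, was 2.73 and 6.20 TPM in triple null and 0.197 and 0.391 TPM in wild type, and the endothelial cadherin Cdh5 was at 0.865 TPM or less in every library. The 12 stromal markers summed to 25.5 and 22.7 TPM in triple null and 24.4 and 25.2 TPM in wild type. Of these 6 were under 1 TPM in every library, Col3a1 and Bglap at 0 throughout. Of the 6 tested, 1, Pdgfrb, lay above wild type without overlap in triple null and 2, Spp1 and Sparc, below (30.9% and 14.2% of all genes). The 18 lineage markers summed to 451 and 287 TPM in Scribble null, 185 and 196 TPM in Yap1 Taz null, 240 and 220 TPM in triple null and 147 and 154 TPM in wild type. The myeloid genes Itgam and Prtn3 rose in Scribble null (limma, adjusted p = 0.0443 and 0.0324, where 0.591% of genes were called higher). Itgam was also 10.6 and 8.52 TPM in triple null, against 2.00 and 0.922 TPM in wild type, without a call (limma, adjusted p = 0.0772). The part of these markers in the values of Cyr61 and the other targets was not tested.

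Ctgf, the other CCN protein on the list (chromosome 10, 24595442 to 24598683, plus strand), was almost undetected. It was listed at 0 and 0.0274 TPM in Scribble null, 0.0280 and 0 TPM in Yap1 Taz null, 0.281 and 0.0265 TPM in triple null and 0.0272 and 0 TPM in wild type. Of its 2861 exon bases 665 overlap a transcript on the opposite strand, Gm15270, and strand was not stated for the counting. Ankrd1, an ankyrin-repeat cofactor best known from heart and muscle (chromosome 19, 36111961 to 36120099, minus strand), was listed at 0 in all 8 libraries, although its promoter holds 2 TEAD motifs. These 2 genes did not pass the filter of at least 1 TPM in at least 2 libraries and were not tested. Of the 4 other CCN family genes, Wisp3 alone passed the filter, at 4.05 and 1.74 TPM in Scribble null, 3.94 and 1.46 TPM in Yap1 Taz null, 1.34 and 1.13 TPM in triple null and 0.0628 and 1.09 TPM in wild type.

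Amotl1 and Amotl2 encode angiomotin-like proteins, junctional scaffolds that bind Yap1 and keep it out of the nucleus. Amotl1 (chromosome 9, 14541966 to 14645056, minus strand) was 2.24 and 1.17 TPM in Scribble null, 1.04 and 1.35 TPM in Yap1 Taz null, 0.929 and 0.822 TPM in triple null and 0.439 and 0.524 TPM in wild type. Every null library was above both wild-type ones. The gene reached 1 TPM only in the Scribble null and Yap1 Taz null libraries, so it passed the filter through the groups where it is high. Amotl2 (chromosome 9, 102716672 to 102733418, plus strand) was 3.74 and 3.43 TPM in Scribble null, 3.09 and 6.61 TPM in Yap1 Taz null, 2.00 and 1.80 TPM in triple null and 1.60 and 1.73 TPM in wild type. Its triple null libraries lay between wild type and the other null genotypes, apart from both.

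None of the differences of Amotl1 and Amotl2 passed the test. For Amotl1 the difference from wild type was 0.84 in Scribble null (limma, adjusted p = 0.251; 0.55 without Scribble null 1), 0.57 in Yap1 Taz null (limma, adjusted p = 0.495) and 0.34 in triple null (limma, adjusted p = 0.748). For Amotl2 it was 0.78 in Scribble null (limma, adjusted p = 0.309), 1.07 in Yap1 Taz null (limma, adjusted p = 0.251) and 0.12 in triple null (limma, adjusted p = 0.936). The Yap1 Taz null value of Amotl2 was 0.62 without Yap1 Taz null 2 and 0.42 in the second deposited table. The departure from additivity of Amotl2 was −1.73 with SE 0.52 (limma, adjusted p = 0.196), and −0.82 in the second deposited table. That of Amotl1 was −1.07 with SE 0.49 (limma, adjusted p = 0.363). For both genes the Scribble null libraries lay above wild type, while the triple null libraries lay below Yap1 Taz null.

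Ptpn14, a tyrosine phosphatase that binds Yap1 and restrains it (chromosome 1, 189728268 to 189876695, plus strand), had 11.99 and 14.7 TPM in Scribble null, 6.99 and 8.57 TPM in Yap1 Taz null, 9.70 and 10.3 TPM in triple null and 6.03 and 6.62 TPM in wild type. All neighbours in the order Scribble null, triple null, Yap1 Taz null, wild type were apart. In Scribble null it was at 2.11 times the wild-type mean, a difference of 0.97 with SE 0.25 and a 95% interval of 0.39 to 1.55 that nevertheless did not pass over all genes (limma, adjusted p = 0.112). In triple null the difference was 0.59 with SE 0.25 (limma, adjusted p = 0.450). Of its 13413 exon bases 177 overlap an antisense transcript.

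Ajuba, a LIM-domain scaffold that inhibits the Lats kinases (chromosome 14, 54567472 to 54577558, minus strand), was low and variable. It stood at 1.21 and 2.53 TPM in Scribble null, 1.44 and 1.20 TPM in Yap1 Taz null, 1.37 and 0.592 TPM in triple null and 2.07 and 1.28 TPM in wild type. All neighbours in the order of its means overlapped, and the difference from wild type of largest size was −0.44 with SE 0.39, in triple null (limma, adjusted p = 0.713), between −0.73 and −0.16 without 1 library.

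Axl, a receptor tyrosine kinase that binds Gas6 (chromosome 7, 25757273 to 25788705, minus strand), was 16.9 and 8.79 TPM in Scribble null, 10.6 and 7.55 TPM in Yap1 Taz null, 6.76 and 6.50 TPM in triple null and 8.57 and 6.41 TPM in wild type. Both Scribble null libraries were above both wild-type ones, with a wide gap between them. Its difference from wild type was 0.65 with SE 0.35 in Scribble null (limma, adjusted p = 0.368) and −0.14 with SE 0.35 in triple null (limma, adjusted p = 0.920). The Scribble null value was 0.22 without Scribble null 1 and 1.08 without Scribble null 2. In the triple null Axl lay below both Scribble null libraries, a difference of −0.79 with SE 0.35 (limma, adjusted p = 0.552), which was −0.36 and −1.23 without the same libraries.

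Crim1, a transmembrane protein that binds BMPs and limits their release (chromosome 17, 78200248 to 78376592, plus strand), varied within a narrow range. It was 14.6 and 14.3 TPM in Scribble null, 10.00 and 11.8 TPM in Yap1 Taz null, 11.5 and 13.0 TPM in triple null and 10.05 and 9.75 TPM in wild type. Scribble null was apart from each other genotype, at 1.46 times the wild-type mean, a difference of 0.50 with SE 0.23 (limma, adjusted p = 0.289). Of its 5995 exon bases 123 overlap Fez2 on the opposite strand.

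Nuak2, a kinase of the AMPK-related family that promotes actomyosin contractility (chromosome 1, 132316126 to 132333488, plus strand), had an order of its own. It was 8.06 and 11.01 TPM in Scribble null, 4.41 and 8.28 TPM in Yap1 Taz null, 17.1 and 8.47 TPM in triple null and 9.84 and 8.88 TPM in wild type. It was the single tested target with a departure from additivity above 0, at 0.87 with SE 0.56 (limma, adjusted p = 0.513), which was 0.41 without triple null 1 and 1.34 without triple null 2. Triple null 1 alone gave the high mean: without that library the difference from wild type was −0.13, against 0.34 with it (limma, adjusted p = 0.794).

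**Figure D3:**
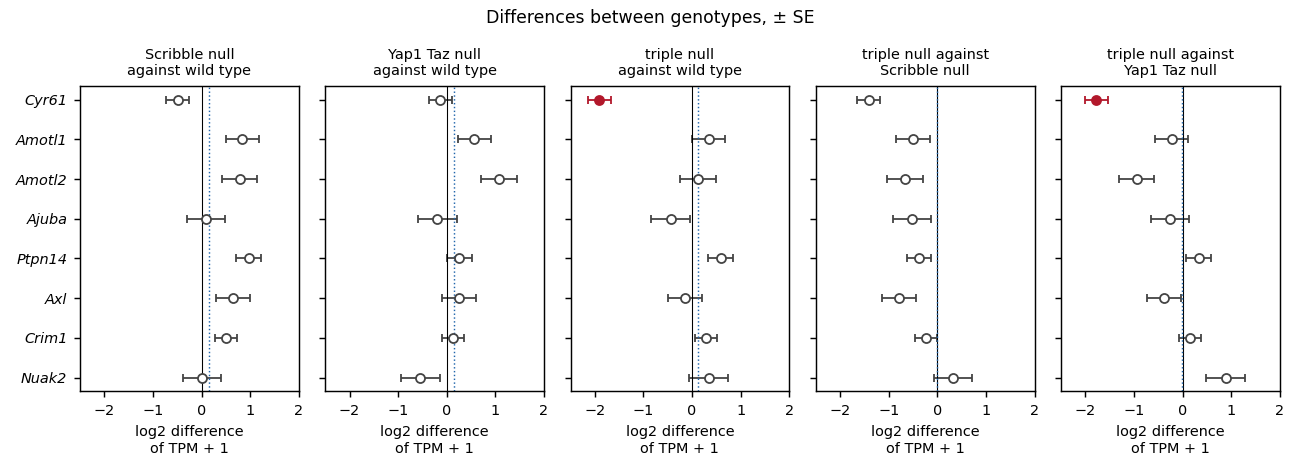
Log2 differences of TPM + 1 for 8 target genes in 5 comparisons, with the standard error of the fit as bars, the named null genotype over its comparator. Filled red points passed an adjusted p of 0.05 and open points did not. The dotted line is the median of all 16064 genes, between −0.02 and 0.14. Cyr61 is the single filled point, at −1.91 and −1.78.

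Set side by side, the 8 tested targets differed in direction. In Yap1 Taz null none was called by limma (0.99% of all genes were), 1 had an unadjusted p under 0.05 (14.3% of all genes had), and the median difference was 0.18, beside 0.14 for all genes. There 3 targets lay above wild type without overlap and 1, Nuak2, below (32% and 14.5% of all genes). In Scribble null none was called by limma (1.3% of all genes were), 2 had an unadjusted p under 0.05 (18.2% of all genes had), and the median was 0.58, beside 0.14 for all genes. In that comparison 5 targets had both null libraries above both wild-type ones, namely Amotl1, Amotl2, Axl, Crim1 and Ptpn14, and 1, Cyr61, had both below. Over all genes these shares were 33.2% above and 15.7% below. The targets with no overlap include one that passed the filter only through its high groups, so the counts describe these 8 genes and no more.

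In triple null the median of the 8 differences from wild type was 0.20, beside 0.12 for all genes, with 4 targets above wild type without overlap and Cyr61 below (30.9% and 14.2% of all genes), and 2, Cyr61 and Ptpn14, had an unadjusted p under 0.05 (10.9% of all genes had). Against Scribble null none was called by limma (0.212% of all genes were), 1 had an unadjusted p under 0.05 (9.15% of all genes had), the median was −0.51, beside −0.01 for all genes, and 6 of 8 had both triple null libraries below both Scribble null ones, against 21.1% of all genes. None lay above without overlap (19% of all genes). Against Yap1 Taz null the median was −0.24, beside −0.02 for all genes, with 4 targets below and 2 above without overlap (21.3% and 18.7% of all genes), and 2 had an unadjusted p under 0.05 (8.41% of all genes had). These comparisons share libraries and are not independent of each other. Amotl1 passed the filter only through its Scribble null and Yap1 Taz null libraries, and it is among the targets below each of them. The counts and medians therefore describe these 8 genes and no more. For the departure from additivity 7 of 8 values were negative, Amotl1 among them, as were most values over all genes. The median was −0.84, beside −0.15 for all genes. None of the 8 was called there by limma (0.635% of all genes were), and 2, Cyr61 and Amotl2, had an unadjusted p under 0.05 (14.5% of all genes had).

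Further known Yap1 and TAZ targets, a list of 18, were described in the same way. Of these 11 passed the filter, and limma called none in any comparison. Their median difference from wild type was 0.23 in Scribble null, 0.10 in Yap1 Taz null and 0.25 in triple null, beside 0.14, 0.14 and 0.12 for all genes. In the same order of comparisons 3, 1 and 3 of the 11 had an unadjusted p under 0.05, beside 18.2%, 14.3% and 10.9% of all genes. The most abundant was Asap1, an Arf GTPase-activating protein, at 44.6 and 69.1 TPM in Scribble null, 61.8 and 92.2 TPM in Yap1 Taz null, 48.4 and 70.4 TPM in triple null and 73.2 and 55.4 TPM in wild type, and every null genotype overlapped wild type. Birc5, the mitotic protein survivin, was 17.4 and 32.3 TPM in Scribble null, 51.2 and 33.3 TPM in Yap1 Taz null, 28.9 and 43.8 TPM in triple null and 69.9 and 59.0 TPM in wild type. Every null library of Birc5 was below both wild-type ones. Lats2, the Hippo kinase that is itself a target and was picked after its values were seen, was 14.2 and 20.03 TPM in Scribble null, 10.6 and 12.1 TPM in Yap1 Taz null, 14.4 and 20.3 TPM in triple null and 10.3 and 10.8 TPM in wild type. Igfbp3 was listed at 0 in all libraries.

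Hippo pathway genes were likewise without a call by limma: of 27 listed, 21 passed the filter, and 7 in Scribble null, 3 in Yap1 Taz null and 4 in triple null had an unadjusted p under 0.05 against wild type, beside 18.2%, 14.3% and 10.9% of all genes. Their medians were 0.34 in Scribble null, 0.17 in Yap1 Taz null and 0.26 in triple null, beside 0.14, 0.14 and 0.12 for all genes. The most abundant was Stk4, the kinase Mst1, at 131 and 127 TPM in Scribble null, 97.5 and 131 TPM in Yap1 Taz null, 123 and 126 TPM in triple null and 112 and 93.5 TPM in wild type. The kinase partner Mob1a followed, between 81.2 and 116 TPM over the 8 libraries.

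Cyr61 is also an immediate early gene, induced by serum in part through SRF, so 26 immediate early genes and 13 SRF targets were set beside it. Of the 26, 5 were called with a negative departure from additivity, namely Egr1, Nr4a1, Nr4a2, Btg2 and Zfp36, where 0.261% of all genes were called lower. Their departures lay between −1.59 and −0.91, and the median over the 26 was −0.61, beside −0.15 for all genes. Of the 26, 23 were negative, as were most values over all genes. Against wild type Egr1, Fosb and Klf6 rose in Scribble null, and Egr1 and Nr4a2 rose in Yap1 Taz null (0.591% and 0.473% of all genes were called higher). None of the 26 was called by limma in triple null against wild type, where 10 had an unadjusted p under 0.05 (0.579% and 10.9% of all genes). There 6 lay above wild type without overlap and 11 below, against 30.9% and 14.2% of all genes. In triple null 17 of the 26 lay below Yap1 Taz null without overlap and 2 above (21.3% and 18.7% of all genes). Set against Scribble null, 19 lay below and 2 above (21.1% and 19% of all genes). Nr4a2, an orphan nuclear receptor, was 404 and 371 TPM in Scribble null, 493 and 561 TPM in Yap1 Taz null, 221 and 242 TPM in triple null and 278 and 306 TPM in wild type, and it fell in the triple null against Yap1 Taz null by 1.18 on the log2 scale with SE 0.12 (limma, adjusted p = 0.0151). Egr1, a zinc-finger factor, was 1074 and 1146 TPM in Scribble null, 871 and 1009 TPM in Yap1 Taz null, 753 and 747 TPM in triple null and 504.7 and 514.7 TPM in wild type, so it stood above wild type where Cyr61 stood below. Summed over the 26 genes, levels were 7386 and 8014 TPM in Scribble null, 6928 and 7559 TPM in Yap1 Taz null, 5764 and 5905 TPM in triple null and 5681 and 5487 TPM in wild type. None of the 10 SRF targets that passed the filter was called by limma in any comparison, and their median departure was 0.11. The most abundant, Actb, was 4325 and 3763 TPM in triple null and 3819 and 3589 TPM in wild type.

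**Figure D4:**
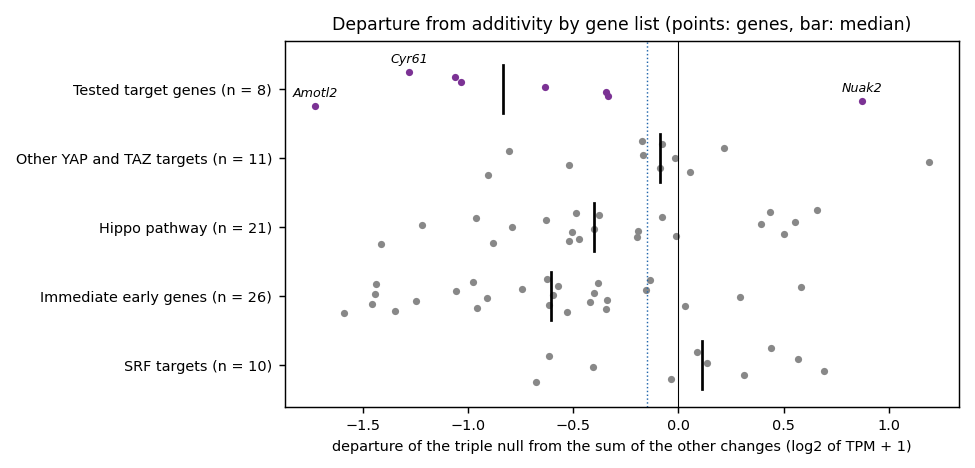
Departure from additivity in the triple null, set against the Scribble null and Yap1 Taz null differences added together, in log2 of TPM + 1, for the tested genes of 5 lists. Points are genes, bars list medians and the dotted line the median of all genes, −0.15. Medians are −0.84 for the 8 target genes and −0.61 for the immediate early genes, and the highest of the 8 targets is Nuak2 at 0.87.

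The genes whose pattern over the 8 libraries was closest to that of Cyr61 were Rpl29, a protein of the large ribosomal subunit, Nfe2l3, a basic leucine zipper factor, and Abhd14a. Their root mean square differences from Cyr61 were 0.34, 0.39 and 0.42 on the log2 scale after each gene was centred on its mean, among 13283 genes searched. Nfe2l3 was 7.15 and 12.8 TPM in Scribble null, 10.8 and 13.4 TPM in Yap1 Taz null, 4.09 and 3.38 TPM in triple null and 14.0 and 8.92 TPM in wild type. All of these genes had both triple null libraries below the other 6, which is no separate result, since they were picked for their closeness to Cyr61 over these libraries. None of the 7 other targets tested was among them, which says nothing of those targets, with only 3 of 13283 genes kept.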

How the data were processed

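The authors deposited 1 table of TPM per library, per the file headers, with 33641 symbols summing to 1000000. A whole-series table deposited by the authors holds linear signal values in an unnamed unit for 28987 Ensembl identifiers, of which 25270 matched a symbol, and was used as an alternative. The submitters' processing notes name TopHat and the build mm10. The sources used here do not state the quantifier, annotation or strand setting. Groups and replicate numbers come from the sample titles.

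The scale of testing was log2(TPM + 1). In R 4.3.3, limma 3.58.1 with a mean-variance trend was run on the 16064 genes that reached 1 TPM in 2 or more of the 8 libraries, in 1 model with a mean per genotype (4 residual and 4.00 prior degrees of freedom). Benjamini-Hochberg adjustment covered all genes tested. An exact permutation test of 2 against 2 libraries cannot go below p = 0.333 and was not used. Fold changes on this scale understate changes of low genes. The model was also tested on simulated data. A difference that missed the threshold is not shown to be absent.

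The members and gene lists were chosen with earlier results of these data known. Genes named were drawn from the members, the targeted genes, called genes of each list or else its most abundant 2, and the 3 closest to Cyr61 in pattern. Not every gene that this rule admits is named. Any other named gene was chosen after its values were seen. Coordinates are from GENCODE M21 (GRCm38, which is mm10), and promoters from RefSeq. By BLAST 2.17.0, no other gene's transcript matched the longest transcript of a member, a targeted gene or one of these 3 at 95% identity over 80% of its length. Alternatives were other pseudocounts, filters and scalings, a replicate block, fewer groups, the other table and leaving out each library.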

Additional observations from a re-analysis of the deposited data

How the results depend on the processing

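Cyr61 stayed lower in the triple null than in wild type, Scribble null and Yap1 Taz null under each alternative run. Against wild type its call was lost when only those 4 libraries were fitted (0 targets called, −1.91, adjusted p = 0.115). Over the fits that left out 1 library, the count of targets called ranged from 0 to 1 and the difference from −2.18 to −1.64. Against Yap1 Taz null no target was called with no filter (−1.78, limma adjusted p = 0.0869), with median-ratio scaling (−1.75, 0.0525), with the replicate block (−1.78, 0.108), with only the groups compared (−1.78, 0.260) or in the whole-series table (−1.79, 0.0553). Leaving out 1 library gave 0 targets called and −2.04 to −1.51. The sample titles number the libraries of each genotype and do not say what same-numbered libraries share. Over all genes tested, deviations of same-numbered libraries from their genotype means correlated between −0.053 and 0.026 across genotypes. A correlation over all genes cannot exclude a shared experiment or day that moved some genes. With the block the genes called in Scribble null against wild type went from 209 to 110, and no other call among the targets changed. Cyr61 in Yap1 Taz null against wild type changed sign in the whole-series table, to 0.0037.

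Differences of uncalled targets near 0 also changed sign. In Scribble null against wild type, Ajuba was −0.021 with median-ratio scaling and −0.12 with quantile normalization, and between −0.26 and 0.42 without 1 library. Nuak2 there was −0.13 and −0.14 under these scalings and −0.011 in the whole-series table, and between −0.19 and 0.21 without 1 library. In Yap1 Taz null against wild type, Crim1 was −0.024 and −0.039 under these scalings, and Ajuba lay between −0.41 and 0.022 without 1 library. In triple null against wild type, Amotl2 was −0.047 with quantile normalization, while without 1 library Axl lay between −0.33 and 0.042 and Nuak2 between −0.13 and 0.80. Without 1 library Nuak2 in triple null against Scribble null lay between −0.14 and 0.79, Ajuba in triple null against Yap1 Taz null between −0.54 and 0.037, and its departure between −0.67 and 0.0045. The causes were not tested. The count of all genes called ranged over the alternatives, libraries left out included, from 47 to 260 for Scribble null, 53 to 163 for Yap1 Taz null and 39 to 103 for triple null against wild type, where it was 209, 159 and 93. TPM keeps no depth, which limits what can be said of Ctgf and Ankrd1.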
